A study of Caenorhabditis elegans with 12 samples.

Results

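The genes that make and use small RNAs in Caenorhabditis elegans are themselves transcribed into mRNAs that small RNAs can match, and the reads at these genes are described here. The 39 genes were chosen by WormBase symbol: Dicer and its partners, Argonautes, RNA-dependent RNA polymerases (RdRPs) and their cofactors, mutator proteins, nuclear RNAi factors, double-stranded RNA (dsRNA) transporters, and the helicase gene znfx-1. All 39 were found among the 46726 gene identifiers of the deposited count table, 19617 of which are protein-coding. Adult whole animals grown at 20 °C came from the control strain YY1312, which carries hrde-1(gg594), or from YY1192, which carries hrde-1(gg594) together with hrde-2(gg517). Each strain ate bacteria making dsRNA of oma-1, an oocyte gene, or of L4440, the vector alone. Thus every group carries the hrde-1 allele, although the sample titles call the control wild-type. The sources used here do not say what gg594 and gg517 change, and each genotype is represented by 1 strain. Each of the 4 groups had 3 of the 12 samples, but the table holds 1 pooled column per group, so no spread between samples can be given.

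In worm RNAi, Dicer cuts dsRNA into primary small RNAs that Argonautes carry to target mRNAs. RdRPs then copy the targeted mRNA into abundant secondary small RNAs, which a second set of worm-specific Argonautes binds in the cytoplasm or takes into the nucleus. Endogenous genes feed the same RdRPs: WAGO-class Argonautes bind small RNAs against silenced genes, while CSR-1 binds small RNAs against genes expressed in the germline. Small RNA reads at a machinery gene are therefore not a measure of its protein. No source used here gives the strand setting of the counting, so antisense small RNAs and sense fragments of the mRNA cannot be told apart.

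Gene-assigned reads numbered from 16057238 to 39077097 per column, and tRNA genes took 53.6 to 59.8% of them. Levels are given as CPM, counts per 1000000 reads after scaling with the trimmed mean of M values (TMM). With control on L4440 set to 1, the TMM scale was 1.38 for control fed oma-1 dsRNA, 3.95 for hrde-2 fed L4440 and 1.32 for hrde-2 fed oma-1 dsRNA, whereas gene-assigned totals alone gave 1.35, 1.54 and 0.634. The choice between these scales moves every genotype difference by over 1 log2 unit, and the genotype results below are read against all genes on the same scale. Reads at the fed gene, oma-1, numbered 37, 10881, 148 and 5250 (control on L4440 and on oma-1 dsRNA, then hrde-2 on both), high in the 2 columns labelled oma-1 dsRNA. All libraries of a genotype carried the same 5′ barcode, which the other genotype lacked, so barcode and genotype cannot be told apart. Intervals are 95% intervals for counting error only, since PCR copies of a molecule are not independent.

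The machinery genes carried few reads, and znfx-1 stood well above the rest. Together the 39 genes held 3273 and 4976 reads in the control columns (L4440, then oma-1 dsRNA) and, in hrde-2, 11599 and 3885. The 36 of them that carry no mark for shared reads, described below, held 0.517 to 0.581% of the reads at unmarked protein-coding genes. The median gene had 56, 83, 174 and 60 reads in the same order of groups, which is used throughout below. On the CPM scale the sums were 198, 218, 177 and 178. In all, 13 genes reached 5 CPM in at least 1 column, 8 reached it in all 4, and 26 did not reach it in any.

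Per kilobase of exon, most of these genes lay in the upper part of all protein-coding genes. Of the 39, 36 were above the median of the 19617 protein-coding genes, 25 at or above the 75th percentile and 11 at or above the 90th, with a median percentile of 81.6. This places a level and is not a test. A second list of 53 small RNA pathway genes, described below, was placed alike, with 47 above that median and a median percentile of 79.2. Many protein-coding genes had few reads. Among those kept by the filter on low counts the median was 0.607, 0.610, 0.623 and 0.612 CPM per kilobase, against 1.21, 1.01, 0.886 and 0.863 for the 39 genes. The highest levels per kilobase, as means over the 4 columns, were 4.86 CPM at prg-1, 4.80 at znfx-1, 4.16 at sid-1, 3.65 at hrde-1, 3.56 at rde-11 and 3.35 at csr-1. The lowest were 0.256 at rde-10, 0.227 at alg-3 and 0.158 at sid-2, so that the highest and the lowest gene differed 30.8-fold. Exons of frpr-10 overlap 11.9% of the exon sequence of csr-1, which carries no mark for shared reads. In all, 13 of the 39 genes have some exon overlap with another gene, 4 of them at 5% or more. The effect of overlap on these levels was not measured. Longer genes tended to have more CPM (Spearman rho 0.44 over the 39 genes, which share columns and scaling), and exon lengths ran from 1028 to 7795 bases. The genes lie on chromosome I (10), II (5), III (8), IV (7), V (7) and X (2).

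**Figure D1:**
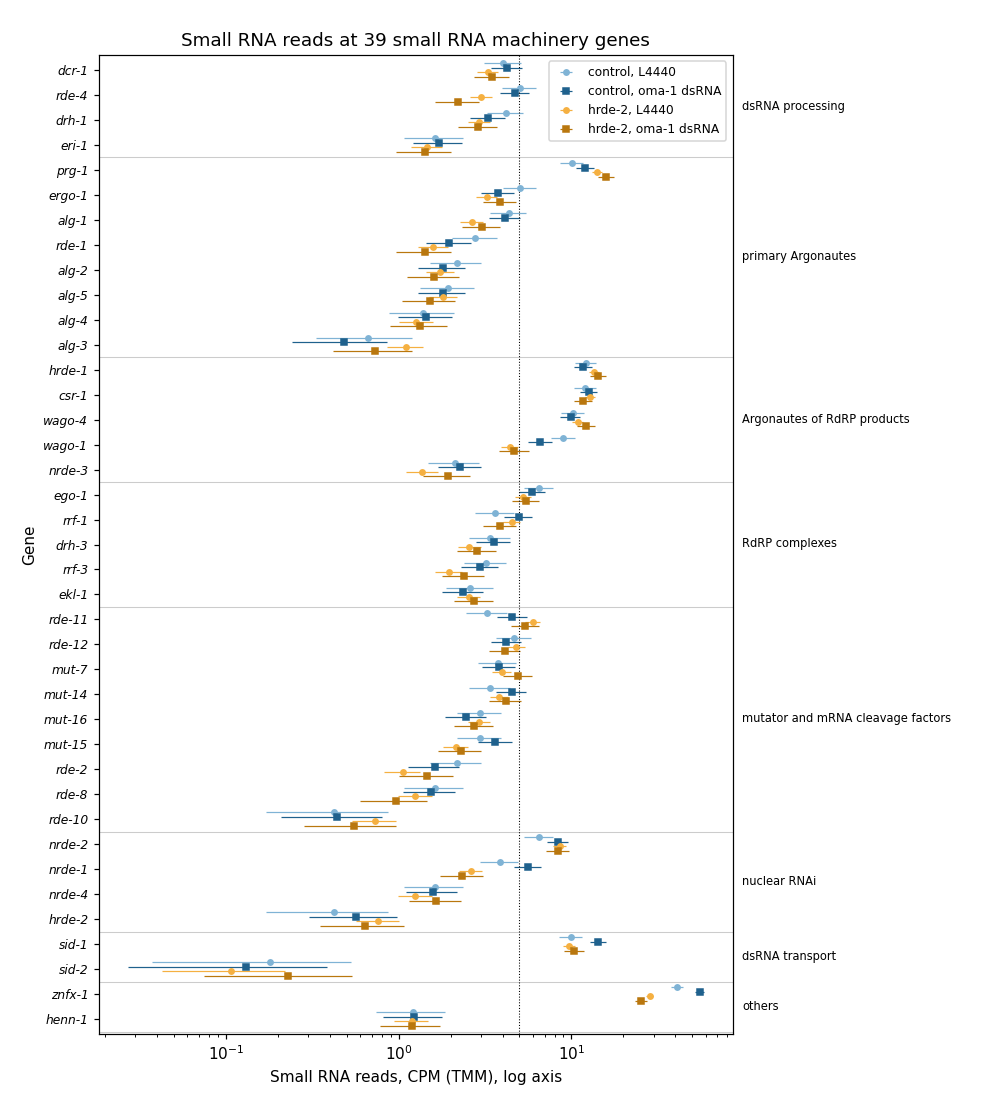
CPM (TMM scale, log axis) of the 39 machinery genes in the 4 pooled columns, grouped by role, with exact 95% Poisson intervals and a dotted line at 5 CPM. The gene znfx-1 lies between 25.3 and 55.3 CPM in all columns, and most other genes lie under the line.

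Among the genes of dsRNA entry, sid-1 and sid-2 differed widely. The gene sid-1 (WBGene00004795, chromosome V, 5119970 to 5126916, plus strand, build WBcel235) encodes the dsRNA-selective channel of systemic RNAi. It had 164, 326, 632 and 226 reads, or 9.90, 14.3, 9.65 and 10.3 CPM, and on the TMM scale stood highest in control on oma-1 dsRNA. Gene-assigned totals gave 6.49, 9.54, 16.2 and 14.1 CPM, highest in hrde-2 on L4440. A pseudogene, WBGene00045077, had near-equal reads in all columns, so sid-1 carries the mark for possibly shared reads. By contrast sid-2, whose product takes up dsRNA in the gut lumen, had 3, 3, 7 and 5 reads, was the 1 gene removed by the filter on low counts, and is not compared.

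The dsRNA processing genes had intermediate levels. The gene rde-4, which encodes the dsRNA-binding partner of Dicer, had 83, 108, 197 and 48 reads. The Dicer gene dcr-1 had 67, 97, 215 and 76 reads, and drh-1, a Dicer-related helicase gene, 69, 75, 191 and 63. The exonuclease gene eri-1, whose loss enhances RNAi, had 27, 39, 95 and 31. On the TMM scale rde-4 stood at 5.01 and 4.73 CPM in the control columns and at 3.01 and 2.20 in the hrde-2 columns, whereas under gene-assigned totals it stood at 3.28 and 3.16, then 5.05 and 2.99, highest in hrde-2 on L4440.

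Of the primary Argonautes, prg-1 alone stood near the top. It encodes the Piwi protein that binds piRNAs, and it had 166, 275, 917 and 345 reads, or 10.02, 12.04, 14.01 and 15.8 CPM. Both hrde-2 columns were above both control columns. The gene ergo-1, whose Argonaute binds small RNAs made with RRF-3, had 84, 86, 212 and 84 reads, or 5.07, 3.77, 3.24 and 3.85 CPM. The Argonaute gene of exogenous RNAi, rde-1, had 46, 45, 104 and 31. The miRNA Argonaute genes alg-1 and alg-2 had 72, 94, 174 and 66 reads, and 36, 41, 114 and 35. An annotated snoRNA, K02B9.10, lies within alg-1, which is therefore marked for possibly shared reads, and alg-5 is marked for the snoRNA T23D8.11. The remaining alg genes held between 11 and 119 reads per column, with alg-3, a gene of sperm development, the lowest at 11, 11, 72 and 16.

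The Argonautes of RdRP products included 3 of the 6 genes with most reads. The gene hrde-1 (WBGene00007624, chromosome III, 4172337 to 4176159, minus strand), for the nuclear Argonaute of germline inheritance, had 201, 266, 887 and 312 reads, or 12.1, 11.6, 13.5 and 14.3 CPM. All 4 columns carry the gg594 allele of this gene, so its level without that allele was not measured. The gene csr-1 had 199, 288, 843 and 255 reads, or 12.02, 12.6, 12.9 and 11.7 CPM, a narrow range on the TMM scale. Gene-assigned totals gave 7.87, 8.42, 21.6 and 15.9 CPM at csr-1. The gene wago-4, whose Argonaute acts in inheritance in the cytoplasm, had 169, 226, 712 and 266 reads, or 10.2, 9.90, 10.9 and 12.2 CPM. The gene wago-1, whose Argonaute binds small RNAs against silenced germline genes, had 149, 151, 288 and 102 reads, or 8.998, 6.61, 4.399 and 4.67 CPM. The somatic nuclear Argonaute gene nrde-3 had 35, 52, 90 and 42 reads, or 2.11, 2.28, 1.37 and 1.92 CPM. Both wago-1 and nrde-3 were lower in each hrde-2 column than in either control column on the TMM scale. Under gene-assigned totals both were higher in each hrde-2 column. There wago-1 stood at 5.89, 4.42, 7.38 and 6.36 CPM, and nrde-3 at 1.38, 1.52, 2.31 and 2.62. On the TMM scale the counting intervals of nrde-3 overlapped, as in control on L4440 (1.47 to 2.94) and hrde-2 on oma-1 dsRNA (1.39 to 2.60).

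RdRP and mutator genes mostly lay under 5 CPM. The germline RdRP gene ego-1 had 107, 135, 344 and 119 reads, or 6.46, 5.91, 5.25 and 5.45 CPM. The gene rrf-1, for the RdRP of secondary small RNAs, had 60, 113, 296 and 84 reads, and rrf-3, for the RdRP of the ERGO-1 pathway, 53, 68, 128 and 52. Their cofactor genes drh-3 and ekl-1 stood between 2.36 and 3.55 CPM in all columns. Among mutator and mRNA cleavage factors, rde-11, which encodes part of a complex needed for secondary small RNAs, was the 1 gene past 5 CPM, with 54, 104, 392 and 118 reads, or 3.26, 4.55, 5.99 and 5.40 CPM. Its partner rde-10 had 7, 10, 48 and 12 reads. The helicase genes rde-12 and mut-14 and the exonuclease-like gene mut-7 stood between 3.38 and 4.90 CPM, and mut-15 and the mutator scaffold gene mut-16 between 2.14 and 3.63. The genes rde-2 and rde-8, the latter encoding an endonuclease, stood between 0.962 and 2.17.

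The nuclear RNAi genes spanned the range. The gene nrde-2 had 107, 190, 559 and 182 reads, or 6.46, 8.32, 8.54 and 8.33 CPM. The gene nrde-1 had 64, 128, 171 and 51 reads, or 3.86, 5.61, 2.61 and 2.34 CPM, and on the TMM scale was highest in control on oma-1 dsRNA. Gene-assigned totals gave 2.53, 3.74, 4.38 and 3.18 CPM, highest in hrde-2 on L4440. The gene nrde-4 had 27, 36, 82 and 36 reads. The mutated gene hrde-2 (WBGene00011324, chromosome V, 15005100 to 15006400, plus strand) had 7, 13, 50 and 14 reads, or 0.423, 0.569, 0.764 and 0.641 CPM. These small RNA reads neither show nor test whether the gg517 allele is present.

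The helicase gene znfx-1 (WBGene00014208, chromosome II, 9213658 to 9223153, plus strand), whose product sits in perinuclear Z granules and acts in RNAi inheritance, had the most reads of all 39. It had 676, 1262, 1858 and 553 reads, or 40.8 (37.8 to 44.02), 55.3 (52.3 to 58.4), 28.4 (27.1 to 29.7) and 25.3 (23.3 to 27.5) CPM. On the TMM scale both hrde-2 columns were below both control columns, and under gene-assigned totals the order was 26.7, 36.9, 47.6 and 34.5 CPM, highest in hrde-2 on L4440. Its mean of 37.4 CPM was 2.89 times the 12.97 CPM of the next gene, prg-1. It has the longest exon sequence of the 39 genes, and per kilobase it ranked second after prg-1. The small RNA methyltransferase gene henn-1 had 20, 28, 78 and 26 reads, between 1.19 and 1.23 CPM in all columns.

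The first comparison asks whether small RNAs at the machinery genes differed between hrde-2 mutants and control. On the TMM scale the share of these genes called was near that of other genes or below it. Over both foods 3 of the 38 genes tested were lower in hrde-2 and 0 higher, in edgeR's quasi-likelihood test of an additive model of genotype and dsRNA with Benjamini-Hochberg adjustment over all 13753 features. Among unmarked protein-coding genes 9.02% were lower and 10.7% higher in the same test, and among all features 11.4 and 11.7%. Lower were rde-4 (log2 −0.90, adjusted p = 0.00318), nrde-1 (log2 −0.90, adjusted p = 0.00333) and wago-1 (log2 −0.78, adjusted p = 0.0248). Without the filter on low counts wago-1 did not pass in edgeR (log2 −0.77, adjusted p = 0.0548). Each of these was lower on both foods. In whole animals, fewer cells of a type and less RNA per cell cannot be told apart. At an unadjusted p under 0.05 there were 10 genes, 9 lower and 1 higher, or 26.3% of the 38, against 34.1% of all features and 30.6% of unmarked protein-coding genes. The fit leaves each gene 1 residual degree of freedom, which is the departure of 4 pooled columns from additivity. In edgeR this spread is pooled over the 13753 features, and the pooled value weighed as 585.5 degrees of freedom or more. The edgeR p-values therefore rest on the pooled spread and hardly on a gene's own departure. DESeq2 on the same model called 0 of the 38 genes, against 431 features higher and 669 lower. In DESeq2, 3 of the 38 had an unadjusted p under 0.05. Its log2 effects were −0.91 at rde-4, −0.91 at nrde-1 and −0.77 at wago-1.

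The direction at these 3 genes rests on the scale. Scaled by gene-assigned totals alone, rde-4, nrde-1 and wago-1 stood at log2 0.30, 0.30 and 0.42 and did not pass. On that scale 29 of the 38 genes were called higher in hrde-2 and 0 lower, against 70.8% of all features called higher and 1.58% lower. With the authors' constants 13 were called higher and 0 lower, against 36.9 and 3.6% of all features.

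The median machinery gene lay slightly below the median gene. On L4440 the median log2 difference of the 38 genes was −0.15 under TMM, against 0.02 for all features, and 1.19 under gene-assigned totals, against 1.34. On oma-1 dsRNA the medians were −0.13 against 0.02, and 0.88 against 1.02. A change of scale shifts all genes of a column nearly alike, so the gap between these medians is 1 measurement and not a repeated one. On L4440 the middle 50% of the 38 genes ran from −0.52 to 0.10, against −0.49 to 0.65 for all features. The features are not matched to these genes in type or read level, so the narrower range is not a trait shown for them.

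**Figure D2:**
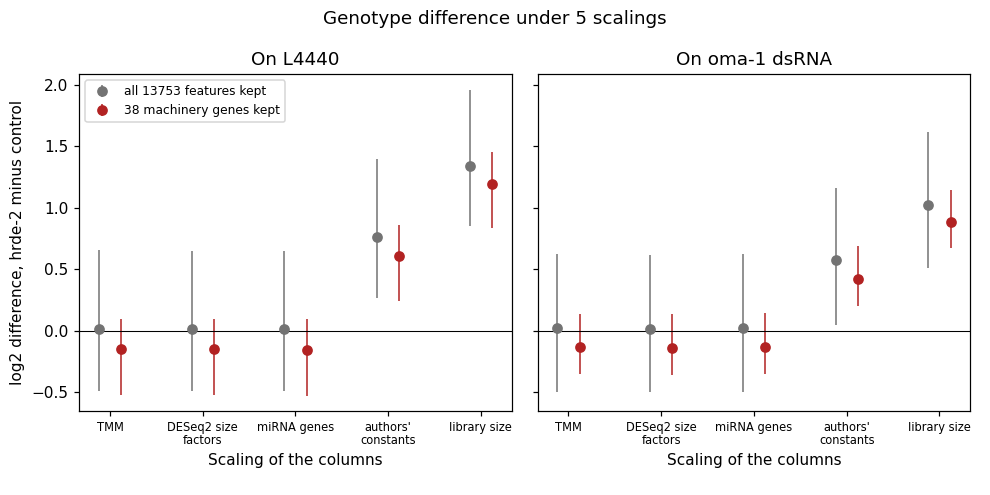
Median log2 difference between hrde-2 and control for the 38 machinery genes kept (red) and all 13753 features kept (grey), on each food under 5 scalings, with bars from the 25th to the 75th percentile of genes. Both medians rise together from about 0 under TMM to 1.19 and 1.34 on L4440 under library size.

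Gene by gene, genotype ratios on the TMM scale were mostly within 2-fold on either food, while under gene-assigned totals 13 genes were 2-fold higher on L4440 and 7 on oma-1 dsRNA, with 0 lower (58.1 and 44.5% of all features were higher on that scale). Only genes whose higher column reached 5 CPM were compared, and a 2-fold ratio counted as a change. On L4440, 12 genes were compared, of which 1 was lower in hrde-2 and 0 higher, where 18.1% of unmarked protein-coding genes were lower and 13.9% higher (27.6 and 13.4% of all features). That gene was wago-1, with a ratio of 0.489 (0.400 to 0.5999), or log2 0.32 under gene-assigned totals. On oma-1 dsRNA, 11 were compared, with 2 lower and 0 higher, where 24.8% of such genes were lower and 14.1% higher (27.8 and 13.8% of all features). These were nrde-1, with a ratio of 0.417 (0.295 to 0.581), and znfx-1, with 0.458 (0.414 to 0.507). The floor admitted wago-1 and nrde-1 only through the control column, where they were high. There wago-1 stood at 8.998 CPM against 4.399 in hrde-2, and nrde-1 at 5.61 against 2.34. With 1 pooled column per group these ratios have no test.

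The signs on the 2 foods, whose comparisons have no column in common, were then set side by side. Both comparisons use the same 2 strains, the same barcodes and the same joint scaling. Equal signs on the 2 foods are therefore not separate support for a genotype effect. On the TMM scale 21 of the 38 genes (55.3%) were below 0 on both foods and 9 (23.7%) above 0 on both, against 35.3 and 36.9% of all features. Under gene-assigned totals 0 were below and 35 (92.1%) above 0 on both, against 3.9 and 87.3% of all features. The gene rde-4 had ratios of 0.6003 (0.462 to 0.786) on L4440 and, for oma-1 dsRNA, 0.465 (0.324 to 0.659). The gene wago-1 stood at 0.706 (0.544 to 0.914) on oma-1 dsRNA, and nrde-1 at 0.676 (0.504 to 0.915) on L4440. The gene with most reads, znfx-1, had a ratio of 0.695 (0.636 to 0.760) on L4440, and over both foods its log2 effect of −0.82 gave an adjusted p of 0.0911 in the edgeR fit. Under gene-assigned totals znfx-1 stood at log2 0.83 on L4440 and −0.10 on oma-1 dsRNA. On the other side, prg-1 had ratios of 1.40 (1.18 to 1.66) and 1.31 (1.12 to 1.54), inside 2-fold. For hrde-1 the ratios were 1.12 (0.957 to 1.31) and 1.23 (1.04 to 1.45), and for hrde-2 1.81 (0.815 to 4.72) and 1.13 (0.491 to 2.60), intervals too wide to place the gene.

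**Figure D3:**
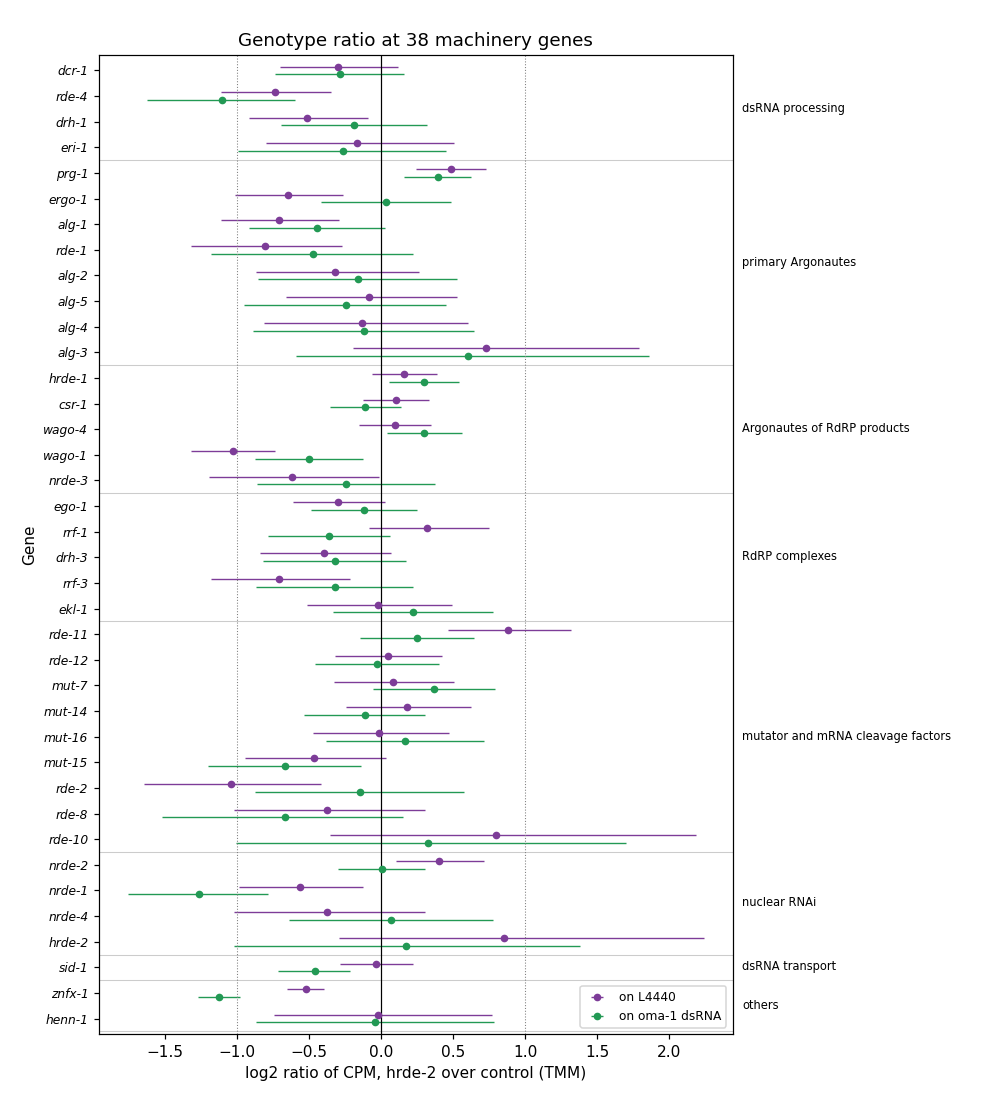
Log2 ratio of CPM in hrde-2 over control (TMM scale) at the 38 machinery genes kept, on L4440 (purple) and oma-1 dsRNA (green), with exact 95% counting intervals and dotted lines at 2-fold. Both intervals lie below 0 at rde-4, wago-1, nrde-1 and znfx-1, and both above 0 at prg-1. Over all 39 genes the interval lay below 0 at 11 and above at 3 on L4440. On oma-1 dsRNA it lay below 0 at 6 and above at 3. The share of all features with such intervals was not computed for genotype, so they do not set these genes apart from others.

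By role, the 4 dsRNA processing genes all lay below 0 on both foods, with medians of −0.41 on L4440 and −0.28 on oma-1 dsRNA, and 1 of the 4 passed the edgeR test, where 11.4% of all features were lower. Of all features, 35.3% were below 0 on both foods. The 5 genes of RdRP complexes had medians of −0.30 and −0.32, with 0 passing. Primary Argonautes had −0.22 and −0.14 over 8 genes, with 0 passing. For the Argonautes of RdRP products the medians were 0.09 and −0.11 over 5 genes, with wago-1 passing. Mutator and mRNA cleavage factors stood at 0.04 and −0.03 over 9 genes, with 0 passing, and nuclear RNAi genes at 0.01 and 0.03 over 4, with nrde-1 passing. The 1 dsRNA transport gene tested, sid-1, stood at −0.04 and −0.46, and znfx-1 and henn-1 had medians of −0.27 and −0.58, with 0 passing among these 3. All of these medians were above 0 under gene-assigned totals.

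Shares of the reads of the 39 genes do not depend on the scale of a column. They are given here for znfx-1, prg-1, hrde-1, csr-1, wago-4, sid-1 and wago-1, with ratios also for rde-4, nrde-1 and rde-11. The gene znfx-1 took 20.7% (19.3 to 22.1) of machinery-gene reads in control on L4440 and 25.4% (24.2 to 26.6) in control on oma-1 dsRNA. In hrde-2 it took 16.02% (15.4 to 16.7) and 14.2% (13.1 to 15.4), below both control shares. Relative to the other 38 genes, reads at znfx-1 were 0.733-fold (0.664 to 0.808) in hrde-2 on L4440 and 0.488-fold (0.437 to 0.545) on oma-1 dsRNA. The share of prg-1 went the other way, at 5.07 and 5.53% in control and 7.91 and 8.88% in hrde-2, or 1.61-fold (1.36 to 1.90) and 1.67-fold (1.41 to 1.96) relative to the others. The share of hrde-1 was 6.14 and 5.35% in control and 7.65 and 8.03% in hrde-2, or 1.27-fold (1.08 to 1.48) and 1.55-fold (1.31 to 1.83) relative to the others. Shares at csr-1 were 6.08, 5.79, 7.27 and 6.56%, at wago-4 5.16, 4.54, 6.14 and 6.85%, and at sid-1 5.01, 6.55, 5.45 and 5.82%. For wago-1 the shares were 4.55 and 3.03%, then 2.48 and 2.63%. Its reads relative to the others were 0.534-fold (0.436 to 0.653) on L4440, but 0.862-fold (0.668 to 1.11) on oma-1 dsRNA, an interval that covers 1. Relative to the others, rde-4 stood at 0.664-fold (0.513 to 0.860) on L4440 and 0.564-fold (0.401 to 0.793) on oma-1 dsRNA. The gene nrde-1 stood at 0.750-fold (0.562 to 1.002) and 0.504-fold (0.364 to 0.698). For rde-11 the ratios were 2.09-fold (1.57 to 2.78) and 1.47-fold (1.12 to 1.92). A share falls where others rise, so these values rank the genes against each other and do not give the direction of any gene alone.

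**Figure D4:**
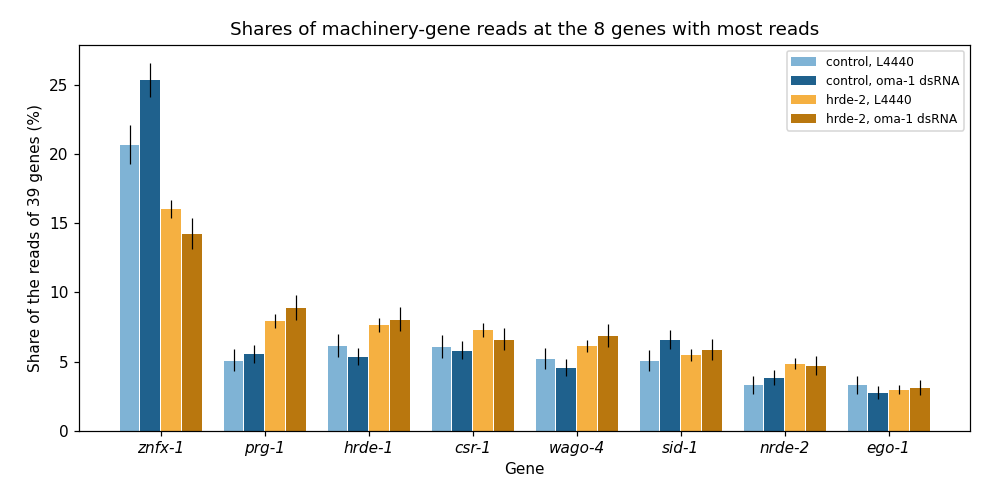
Share of the reads of the 39 machinery genes (%, with exact binomial 95% intervals) at the 8 genes with most reads, in each of the 4 pooled columns. The bars of znfx-1 are 20.7 and 25.4% in control and 16.02 and 14.2% in hrde-2, while those of prg-1 are higher in hrde-2.

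The second comparison asks whether feeding oma-1 dsRNA, which engages this machinery, moved small RNAs at its own genes. None of the 38 genes kept changed by 2-fold in either genotype. Over both genotypes 0 of the 38 genes tested passed in either direction in edgeR's test, and 0 had an unadjusted p under 0.05. DESeq2 also gave 0 on both counts. Of unmarked protein-coding genes, 0.108% were called higher and 0.099% lower in the edgeR fit (0.116 and 0.102% of all features). In control, 12 genes were compared and 0 were higher or lower by 2-fold, where 0.724% of such protein-coding genes were higher and 0.103% lower (0.85 and 0.3% of all features). In hrde-2, 9 were compared and again 0 changed, where 1.43% were higher and 1.07% lower (3.54 and 1.18% of all features). Log2 differences of the 38 genes spanned −0.49 to 0.53 in control; in hrde-2 mutants they spanned −0.58 to 0.48.

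On the TMM scale the counting interval excluded 1 at 5 of the 38 genes in control, 4 above and 1 below, against 7.5 and 7.05% of all features. The ratio of oma-1 dsRNA to L4440 was 1.35 (1.23 to 1.49) at znfx-1, 1.44 (1.19 to 1.75) at sid-1, 1.45 (1.07 to 1.99) at nrde-1 and 1.29 (1.01 to 1.65) at nrde-2. It was 0.735 (0.582 to 0.928) at wago-1. In hrde-2 mutants the interval on the TMM scale excluded 1 at 1 gene, znfx-1, with a ratio of 0.892 (0.810 to 0.982), against 8.35% of all features above and 5.71% below. Under gene-assigned totals it excluded 1 at 11 genes in hrde-2, all lower (20.5% of all features), and at 8 in control, 7 higher (8.24%) and 1 lower (6.12%). Under the authors' constants it did so at 6 in hrde-2, all lower (12%), and at 7 higher (8.57%) and 1 lower (5.93%) in control. At hrde-1 the ratios were 0.960 (0.796 to 1.16) in control and 1.05 (0.924 to 1.20) in hrde-2, and at csr-1 1.05 (0.873 to 1.26) and 0.907 (0.785 to 1.04). Without replicates, none of these ratios can be set against the spread between samples.

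**Figure D5:**
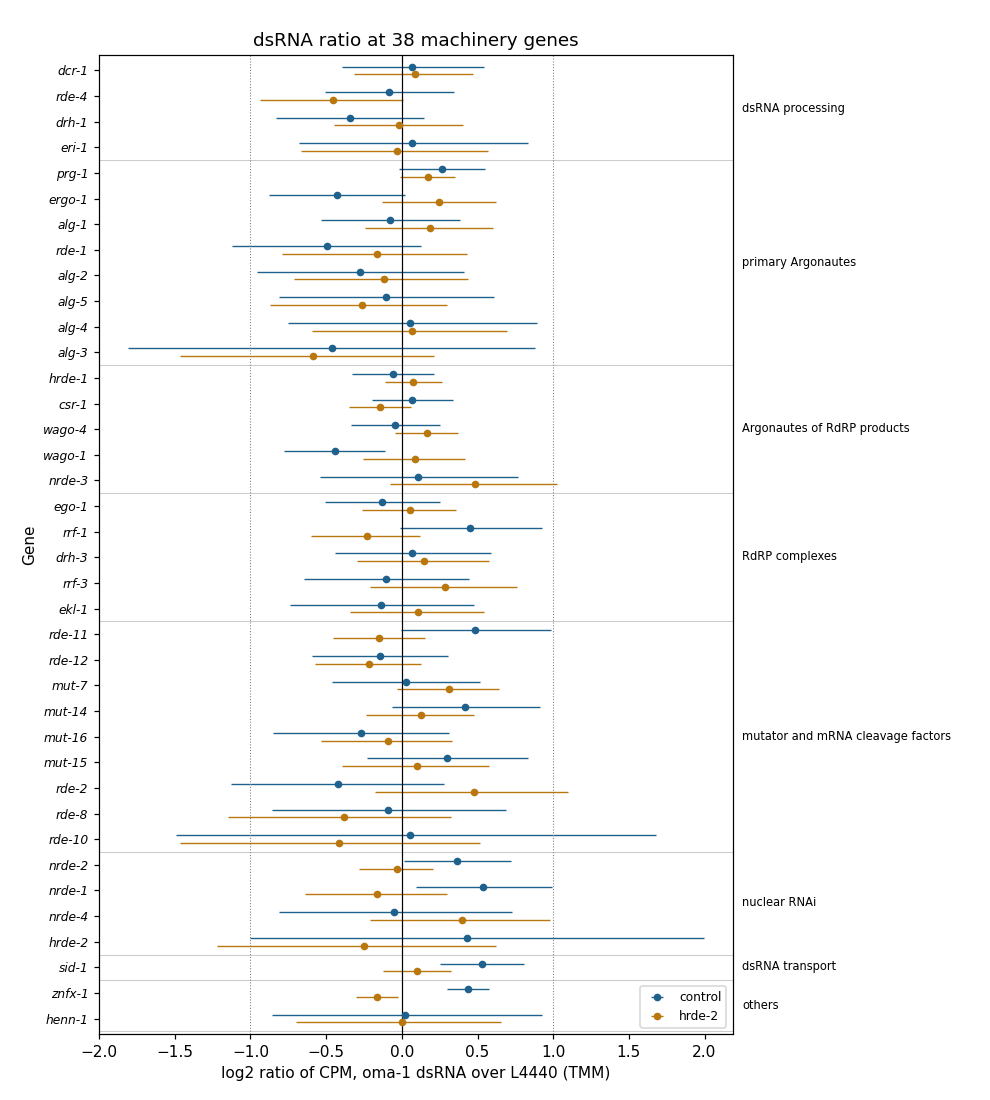
Log2 ratio of CPM on oma-1 dsRNA over L4440 (TMM scale) at the 38 machinery genes kept, in control (blue) and hrde-2 (orange), with exact 95% counting intervals and dotted lines at 2-fold. All points lie within 2-fold, from −0.58 to 0.53.

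The third comparison asks whether the dsRNA response differed between genotypes. Of the 13 genes compared, 0 differed by 2-fold in either direction, where 3.57% of unmarked protein-coding genes had a response at least 2-fold larger in hrde-2 and 3.83% at least 2-fold smaller (8.56 and 3.47% of all features). The difference of log2 responses, hrde-2 minus control, was −0.60 at znfx-1 (counting interval −0.79 to −0.41). The gene nrde-1 stood at −0.69 (−1.32 to −0.07), rde-11 at −0.63 (−1.19 to −0.07) and sid-1 at −0.43 (−0.77 to −0.08). At rrf-1, under 5 CPM, it was −0.68. On the positive side ergo-1 stood at 0.68 (0.11 to 1.24) and wago-1 at 0.53 (0.07 to 0.99). These values are on the TMM scale. The share of all features whose counting interval excludes 0 was not computed here, so the intervals do not set these genes apart from others. Under gene-assigned totals ergo-1 stood at 0.35 (−0.22 to 0.91) and wago-1 at 0.20 (−0.26 to 0.66), both across 0, and znfx-1 at −0.93 (−1.12 to −0.74). All of them use the last degree of freedom of the 4 columns and have no test.

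Other small RNA pathway genes were read from a second list. Of 59 further symbols, 53 were found, and 52 passed the filter. In the edgeR genotype test 3 were higher in hrde-2 and 2 lower, against 11.7 and 11.4% of all features, and in the dsRNA test 0 passed, against 0.116 and 0.102%. Under gene-assigned totals 45 were called higher and 0 lower, against 70.8 and 1.58% of all features. Under the authors' constants 19 and 0 were called, against 36.9 and 3.6%, and DESeq2 called 0, against 3.13 and 4.86%. The 5 genes called under TMM were chosen for naming after their values were seen. The 3 higher were the 5′-3′ exonuclease gene xrn-1 (log2 0.93, adjusted p = 0.00753), with 84, 88, 545 and 187 reads, and 2 Argonaute genes. These were wago-5 (log2 0.78, adjusted p = 0.0201), with 33, 30, 173 and 66 reads, and wago-10 (log2 1.03, adjusted p = 0.0461), with 6, 13, 72 and 18. Lower were ain-1, for a partner protein of miRNA Argonautes (log2 −1.33, adjusted p = 1.15e-05), with 46, 76, 78 and 26 reads, and tofu-5, a gene of piRNA production (log2 −1.19, adjusted p = 0.0171), with 17, 20, 37 and 5. All but xrn-1 stayed under 5 CPM in every column. Without the filter on low counts 2 related genes were higher and 2 lower, against 4.41 and 4.23% of all features. At 5 CPM and 2-fold, 0 of 15 compared genes changed on L4440, where 13.4% of all features were higher and 27.6% lower. On oma-1 dsRNA xrn-1 was the 1 higher of 13, where 13.8% of all features were higher and 27.8% lower. The median log2 difference of the 52 genes was −0.01 on either food, against 0.02 for all features on both.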

How the data were processed

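Small RNAs of adult whole animals were cloned with a protocol that does not require a 5′ monophosphate, per the labels' protocols, so RdRP products with a 5′ triphosphate can be captured. HTSeq 0.6.1 is named in the submitters' processing notes, while no source used here gives the aligner, genome build or strand setting. The authors deposited raw counts per gene in 1 pooled column for each of 4 groups, and a second set of signal values, which are those counts divided by a constant per column (1, 1.34, 2.33 and 0.87). The constants were used as an alternative scaling. Reads not assigned to 1 gene made up 59.9 to 65.3% of each column and stayed out of library sizes and tests: 40.4 to 42.4% were counted as ambiguous by HTSeq, 17.6 to 21.4% met no feature and 1.92 to 2.76% were not aligned. Of 46726 identifiers, 46364 matched the WBcel235 annotation, which gave symbols, lengths and positions.

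edgeR 4.0.16 (R 4.3.3) removed 32973 low features with filterByExpr and kept 13753, then scaled by TMM with a prior count of 0.5. Genotype and dsRNA effects came from 1 additive quasi-likelihood fit of the 4 columns with 1 residual degree of freedom, and the code was tested on simulated data. Single contrasts have exact conditional binomial intervals at 95% and no test. They count a gene at 2-fold and 5 CPM. Ratios relative to the other members have normal-approximation intervals. A gene was marked for shared reads where an annotated structural RNA lies in its span, or where another gene with at least 1000 reads in all had reads within 5% or 15 reads in each column. All 39 genes are accounted for, with values in full for those at 5 CPM in at least 1 column or past the threshold of the fit, and always for hrde-1 and hrde-2; of other genes, the rule names related genes called at 2-fold on both foods and partners of a marked gene. The members and lists were chosen with earlier results of these data known. DESeq2 1.42.0, other scalings, filters and floors were the alternatives.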

Additional observations from a re-analysis of the deposited data

Results flagged for a closer look

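The dsRNA response of znfx-1 differed in direction between the genotypes. Its log2 ratio of oma-1 dsRNA to L4440 was 0.44 in control and −0.16 in hrde-2, a difference of −0.601 with a counting interval of −0.79 to −0.41. Relative to the other 38 machinery genes, its reads were 1.31-fold (1.17 to 1.45) in control and 0.870-fold (0.785 to 0.964) in hrde-2, also in opposite directions. These ratios use the same reads and are no separate support. The pattern was not particular to znfx-1: the related gene parn-1 stood at log2 0.49 in control and −0.24 in hrde-2. Point values changed sign the same way at rde-11, nrde-1 and rrf-1, and the other way at ergo-1 and wago-1. The share of all features with opposite directions was not computed. The difference at znfx-1 was not tested, because each group is 1 pooled column.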

How the results depend on the processing

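No paired analysis was possible because the columns are pooled by group and carry no replicate numbers. For the same reason leaving out each replicate was not run. The genotype counts turned on the scale, which moves all features with it, so each count stands beside the share of all features called the same way. In the additive fit (0 higher and 3 lower under TMM), gene-assigned totals gave 29 higher (70.8%) and 0 lower (1.58%), the authors' constants 13 (36.9%) and 0 (3.6%), and a filter of 10 CPM in 2 columns 3 (27.8%) and 0 (14.2%) of 6 tested. The DESeq2 Wald test gave 0 lower (4.86%), and the cause was not tested. Under gene-assigned totals the log2 effects turned to 0.30 at rde-4, 0.30 at nrde-1 and 0.42 at wago-1, and wago-1 on L4440 turned to 0.32. On L4440 (0 higher, 1 lower) the 2-fold counts were 13 (58.1%) and 0 (3.44%) under totals, 4 (29.5%) and 0 (11.2%) under the authors' constants and 2 (24.1%) and 0 (16.8%) under the stricter filter. On oma-1 dsRNA (0 higher, 2 lower) they were 7 (44.5%) and 0 (4.38%) under totals, 0 lower (10.8%) under the authors' constants, and 1 (24.3%) and 0 (13%) under the stricter filter. A floor of 2 CPM gave 2 lower on L4440 (18.6%). A floor of 10 CPM gave 0 lower on L4440 (37.9%) and 1 on oma-1 dsRNA (34.3%). Leaving out znfx-1, chosen after seeing the data, left 1 lower on oma-1 dsRNA (27.8%). Under totals 1 gene and 1 related gene had a 2-fold smaller dsRNA response in hrde-2 (11.9%). On that scale 17 related genes were 2-fold higher on L4440 (58.1%) and 13 on oma-1 dsRNA (44.5%). Without the filter on low counts, wago-1 had log2 −0.77 and an adjusted p of 0.0548 in edgeR. The dsRNA test gave 0 of the machinery genes under each scaling, filter and tool tried. There at most 0.131% of all features were called higher and at most 0.109% lower. Depth limits the low genes: 5 CPM was 82.8 to 327 reads per column, and 26 of the 39 genes lay under it.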

Other observations

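Among the machinery genes, 2 pairs lie next to each other. The gene mut-15 ends 32 bases before hrde-2 on the plus strand of chromosome V, and their reads were 49, 83, 140 and 50 against 7, 13, 50 and 14. The RdRP genes rrf-1 and ego-1 lie 563 bases apart on the minus strand of chromosome I, and their log2 dsRNA response in hrde-2 minus that in control was −0.68 (−1.25 to −0.11) at rrf-1 and 0.18 (−0.29 to 0.65) at ego-1.

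Among the related genes, eri-6, a gene of the ERGO-1 pathway, had more reads than any of the 39, at 1087, 1791, 3865 and 1209. Other annotated genes overlap 28.9% of its exon sequence, 22.6% on the opposite strand, and with no strand setting given these reads cannot be told apart. Its dsRNA response in hrde-2 minus that in control was −0.35 (counting interval −0.49 to −0.21). The gene parn-1, whose product trims piRNA ends, had 327, 635, 1224 and 345 reads and a difference of −0.74 (−0.99 to −0.48). Other related genes went the other way, among them vig-1 at 0.65 (0.23 to 1.06) and, under 5 CPM, deps-1 at 0.95 (0.28 to 1.62). None of these differences has a test, and all were chosen after their values were seen.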
